A study of Mus musculus with 54 samples.

Results

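The 5 genes described here were the adult alpha-globin genes Hba-a1 and Hba-a2, the adult beta-globin genes Hbb-bs and Hbb-bt, and Alas2, the erythroid form of the enzyme that starts heme synthesis. They were taken by name from 33126 genes in the deposited tables and were followed in every library. The study compared ways of preparing adult mouse kidney for RNA sequencing, with 3 kidneys from 3 mice in each of 18 groups. There were 39 10x Genomics libraries, in which each droplet carries a barcode and each captured molecule a unique molecular identifier (UMI), and 15 bulk libraries. No red blood cell depletion was used in any group.

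C57BL/6J males of 1 litter aged 19 weeks, named AFAPIL.1DEL in the study's methods, gave 6 groups of cells with v2 chemistry: fresh, cryopreserved and methanol-fixed suspensions after either warm dissociation, with a Miltenyi enzyme kit at 37 °C, or cold dissociation, with a bacterial protease on ice. The stored samples were aliquots of the suspensions, kept for 6 weeks (cryopreserved) or 3 months (methanol). Balb/c males aged 18 weeks gave fresh cold-dissociated cells and sorted nuclei washed 3 times at 500g (3×500g), both with v2 chemistry. Balb/c females aged 15 weeks gave fresh and cryopreserved cold-dissociated cells (stored for 2 weeks) and 3 kinds of nuclei from frozen kidney, namely 3×500g, sorted nuclei spun at 2000g with 1 wash (1×2000g), and unsorted nuclei from a sucrose gradient, all with v3 chemistry. The bulk groups were cold and warm suspensions of C57BL/6J males, intact kidneys of Balb/c males, and intact kidneys and cold suspensions of Balb/c females. The C57BL/6J and Balb/c male sets differed in strain and age, and the Balb/c sets in sex, age and chemistry, so levels were compared only within a set.

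Hemoglobin carries oxygen in erythrocytes and is built from 2 alpha and 2 beta chains around heme. Mouse erythrocytes lose their nucleus, yet young ones (reticulocytes) still hold large amounts of globin mRNA and some Alas2 mRNA. Kidney is rich in blood, and when erythrocytes break during dissociation their RNA enters the liquid that surrounds the cells, from where it can be captured in any droplet. Such free RNA is called ambient RNA, and globin transcripts are widely used to gauge it.

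Both pairs of globin genes are close copies, which limits how reads could be divided between them. Hba-a1 (ENSMUSG00000069919) lies at chr11:32283511-32284465 and Hba-a2 (ENSMUSG00000069917) at chr11:32296489-32297298 of GRCm38, each with 3 exons on the plus strand. Hbb-bs (ENSMUSG00000052305) lies at chr7:103826534-103828096 and Hbb-bt (ENSMUSG00000073940) at chr7:103812524-103813996, each with 3 exons on the minus strand. Alas2 (ENSMUSG00000025270) has 11 exons at chrX:150547375-150570638 on the plus strand, and lies within the span of Apex2 on the opposite strand. The coding sequences differed at 1 base of 429 in the alpha pair (C381T, counted from the first coding base, Hba-a1 first) and at 1 base of 444 in the beta pair (C417T, Hbb-bs first). The stretches below hold these bases, in capitals, and are shown because nothing else in the coding sequence separates the copies.

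Hba-a1, chr11:32284318-32284367, coding exon: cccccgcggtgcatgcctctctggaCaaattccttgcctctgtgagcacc
Hba-a2, chr11:32297135-32297184, coding exon: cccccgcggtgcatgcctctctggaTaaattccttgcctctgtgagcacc
Hbb-bs, chr7:103826668-103826717, coding exon, minus strand: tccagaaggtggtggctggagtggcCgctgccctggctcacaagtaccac
Hbb-bt, chr7:103812659-103812708, coding exon, minus strand: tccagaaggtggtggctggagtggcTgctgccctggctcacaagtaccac

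After the stop codon, all 45 windows of 30 bases in Hba-a1 also occurred in Hba-a2, whereas 0 of 102 windows in Hbb-bs occurred in Hbb-bt. Of the 98-base windows along the whole transcript, 343 of 602 were shared in the alpha pair and 333 of 531 in the beta pair. The division of UMIs between Hba-a1 and Hba-a2 is therefore uncertain, and sums over the 4 genes are used for totals. Balb/c mice carry another beta-globin haplotype, which was counted on the reference genes Hbb-bs and Hbb-bt.

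The 10x libraries held 782 to 9308 barcodes and 983522 to 35170947 UMIs, with a median of 343 to 3894 UMIs per barcode. Pairs of libraries shared at most 101 barcode sequences, with a median of 2 over 741 pairs. By the study's methods genes seen in fewer than 10 cells were dropped. The files follow this in part, with 0 to 852 genes per library in 1 to 9 barcodes (Hba-a1 in 1 cold cryopreserved library among them) against 953 to 2374 genes in 10 to 18. A count of 0 can therefore stand for UMIs in up to 9 barcodes, which was 0.0967% to 1.15% of the barcodes. UMIs of all 5 genes were present in 28 of 39 libraries, and the 11 with a gene at 0 were the 9 cryopreserved ones and 2 of Balb/c male cells.

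In fresh C57BL/6J cells, 4 of the 5 genes were lower after warm than after cold dissociation and the remaining one, Hba-a2, missed the threshold. The hemoglobin genes together made up 0.421%, 0.548% and 1.20% of UMIs in the 3 cold libraries and 0.303%, 0.179% and 0.355% in the 3 warm ones. The groups did not overlap, and the highest cold library stood well above the other two.

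Hbb-bs, the most abundant of the 5 in UMIs, had 2171, 2630 and 5874 CPM (UMIs of a gene scaled to the same total in every library) in the cold libraries and 1451, 881 and 1735 in the warm ones. It was 2.67-fold lower after warm dissociation (log2 fold change −1.42 ± 0.38 SE, edgeR quasi-likelihood adjusted p = 0.037). Hbb-bt fell by 1.81 ± 0.41 (adjusted p = 0.0215), Hba-a1 by 1.34 ± 0.39 (adjusted p = 0.0495) and Alas2 by 1.42 ± 0.32 (adjusted p = 0.0203). Hba-a2 had a log2 fold change of −1.37 ± 0.41 with an adjusted p of 0.0531, and so missed the threshold of 0.05. Thus 4 of 5 genes passed, against 7.07% of 12061 tested genes that were lower. No gene passed when any 1 warm library was left out, 1 gene passed without cold replicate 2 or cold replicate 3, and all 5 passed without cold replicate 1. Without cold replicate 3 the log2 fold change of Hbb-bs was −0.80. With DESeq2, Hbb-bt and Alas2 passed, and Hbb-bs did not (adjusted p = 0.0677). Of 7 listed tubule transcripts, 4 were higher after warm dissociation (Kap by 1.30, Miox by 0.64 and Gpx3 by 0.34 on the log2 scale) and none passed as lower. Their part in the hemoglobin result was not tested. Enzyme, temperature and spin differ together between the protocols and cannot be told apart.

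The share of barcodes with at least 1 Hbb-bs UMI showed how widely the transcript was spread. It was 88.3%, 80.0% and 90.0% in cold and 65.6%, 49.1% and 73.1% in warm libraries. Each barcode was then thinned to 500 UMIs, so that all were compared at the same number of UMIs. Thinning does not remove every effect of depth where hemoglobin UMIs do not rise in proportion to it, as described below. The thinned share was 57.6% ± 12.5 (SD, n = 3) after cold and 31.6% ± 12.8 (n = 3) after warm dissociation. The groups did not overlap (exact two-sided permutation p = 0.1, the smallest that 3 against 3 allows). Thinned to 1000 UMIs the difference was −28.5 percentage points, but the groups overlapped (exact permutation p = 0.2).

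**Figure D1:**
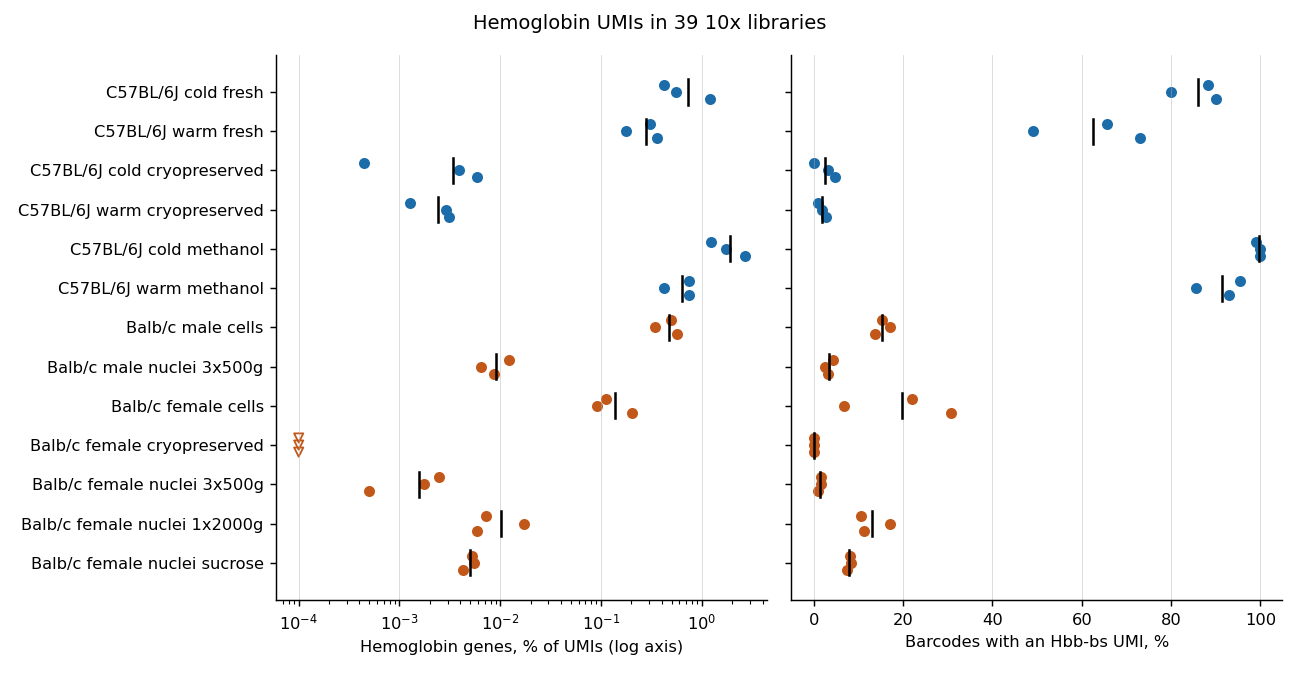
Hemoglobin genes (sum of Hba-a1, Hba-a2, Hbb-bs and Hbb-bt) as a percent of all UMIs on a log axis, and the percent of barcodes with an Hbb-bs UMI on a linear axis, in each of the 39 10x libraries by group, with 1 point per library, black bars for group means and open triangles at the left edge for libraries with no hemoglobin UMI. Among C57BL/6J cells, cold methanol libraries sit at 1.22% to 2.69% of UMIs, and cryopreserved libraries at no more than 0.00593%.

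Cryopreservation left almost no hemoglobin transcripts in the C57BL/6J libraries. After cold dissociation and cryopreservation the 4 genes made up 0.000440%, 0.00387% and 0.00593% of UMIs, and after warm dissociation and cryopreservation 0.00126%, 0.00288% and 0.00312%. These correspond to 8 to 109 UMIs in a whole library, against 15915 to 93460 in the fresh ones. Every cryopreserved library lay below every fresh one.

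Hba-a1, which had UMIs in all 3 cold cryopreserved libraries, was 205-fold lower than in fresh cold cells (log2 fold change −7.68 ± 0.68, edgeR adjusted p = 9.01e-05). This log2 fold change was −7.06 without fresh replicate 3 and −8.41 without cryopreserved replicate 3. Hbb-bs, which had UMIs in all 3 warm cryopreserved libraries, was 127-fold lower than in fresh warm cells (log2 fold change −6.99 ± 0.31, adjusted p = 4.07e-06). Hbb-bt and Alas2 had no UMI in these 6 libraries, and Hba-a2 had none in 1 library of each kind, so their fitted folds depend on values below the filter and are not given. All 4 hemoglobin genes passed the test in both comparisons, against 28.8% of 11408 genes lower after cold and 33.9% of 10786 genes lower after warm dissociation. Alas2 also passed, but its call is not read. In fresh warm cells it was in 0.435% to 0.696% of barcodes, below the 0.717% to 0.900% that 9 barcodes make in the warm cryopreserved libraries, a share at which the stated filter drops a gene. In fresh cold cells it was in 0.808% to 2.12%, which overlapped the limit of 0.552% to 1.00%. With the replicate block its adjusted p after warm dissociation was 0.0804.

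The thinned share of barcodes with Hbb-bs was 1.12% ± 1.02 in cold and 0.850% ± 0.431 in warm cryopreserved libraries (n = 3 each). It lay 56.5 and 30.7 percentage points below the fresh groups, with no overlap (exact permutation p = 0.1 for each, the smallest possible).

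The 7 tubule transcripts moved in the same comparisons. All 7, among them Miox and Kap of the proximal tubule, were lower in the cold cryopreserved libraries, with a median log2 fold change of −5.54, and 6 of 7 were lower in the warm ones, with a median of −5.11. The median over all tested genes was −0.13 and −0.15. Proximal tubule-like cells also became scarce. They were 5547 of 11851 barcodes in fresh cold and 9 of 3519 in cold cryopreserved libraries. In warm libraries they were 6701 of 11257 fresh and 8 of 3483 cryopreserved barcodes. The part of the tubule transcripts and of this change in cells in the hemoglobin result was not tested.

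The Balb/c female set held a like comparison that differed also in strain, sex, chemistry, storage time and the speed of the spin after thawing. Fresh libraries had 0.113%, 0.0914% and 0.205% hemoglobin UMIs, while none of the 3 cryopreserved libraries, with 4734070 to 6108639 UMIs each, held any of the 5 genes. If each of the 4 hemoglobin genes had had 1 UMI in 9 barcodes, the share would have been 0.000589%, 0.000638% and 0.000760%. All 4 hemoglobin genes passed the test, against 29.6% of 12995 genes lower, but none could be tested among genes present in the tables of every library. In the cryopreserved libraries 9 barcodes make 0.583% to 0.758%. Hbb-bt was in 0.732% of barcodes in fresh replicate 2, within that range, and Alas2 was in 0.202% to 0.408% in fresh cells, below it, so that the call of Alas2 is not read. All 7 tubule transcripts were lower here too, with a median log2 fold change of −2.64. Proximal tubule-like cells were 6198 of 16947 fresh and 187 of 4274 cryopreserved barcodes. The thinned share of barcodes with Hbb-bs was 0% against 5.41% ± 3.33 in fresh cells (n = 3 each, exact permutation p = 0.1, the smallest possible).

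Methanol fixation was accompanied by more hemoglobin transcripts than in the fresh suspensions. The 4 genes made up 1.22%, 1.75% and 2.69% of UMIs in cold methanol libraries and 0.746%, 0.426% and 0.746% in warm ones. Every cold methanol library was above every fresh cold one, though by little, since the highest fresh cold library reached 1.20%. The warm groups did not overlap either.

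Hbb-bs was 2.6-fold higher in methanol-fixed than in fresh cold cells (log2 fold change 1.38 ± 0.43, edgeR adjusted p = 0.0411) and 2.33-fold higher in warm ones (1.22 ± 0.26, adjusted p = 0.0209). Hbb-bt had the largest change of the hemoglobin genes in both, 1.71 ± 0.50 (adjusted p = 0.0323) and 1.98 ± 0.21 (adjusted p = 0.00245). In cold cells 3 of 5 genes passed, against 14.3% of 11911 genes higher, as Hba-a1 (1.29 ± 0.46, adjusted p = 0.0646) and Hba-a2 (1.20 ± 0.46, adjusted p = 0.0819) missed the threshold. In warm cells 4 of 5 passed, against 7.54% of 10827 genes, and Alas2 did not (0.78 ± 0.69, adjusted p = 0.506). These fits did not pair the aliquots of a suspension.

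Aliquots of the same suspension varied together here, and with the suspension as a block all 5 genes passed in cold cells, Hba-a1 at 1.34 ± 0.09 (adjusted p = 0.000553). With DESeq2 Alas2 alone passed in cold cells, Hbb-bs having an adjusted p of 0.0848. Leaving out 1 library changed the counts without the block. None passed in cold cells without fresh replicate 1 or 2 or methanol replicate 2 or 3, and all 5 passed without fresh replicate 3. The log2 fold change of Hbb-bs in cold cells was 2.00 without fresh replicate 3 and 0.98 without methanol replicate 3. In warm cells 1 or 2 passed without any 1 fresh library, methanol replicate 1 or methanol replicate 3. Tubule transcripts also moved up, with 4 of 7 higher in cold methanol cells (median log2 fold change 0.51, Gpx3 0.89, Tmem27 0.77) and 2 of 7 in warm ones (median 0.13), and none passed as lower. Their part in the hemoglobin result was not tested.

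Almost every methanol-fixed cell held an Hbb-bs UMI, 99.0%, 99.8% and 99.9% of barcodes after cold and 95.4%, 85.6% and 93.0% after warm dissociation. At 500 UMIs per barcode the share was 97.4% ± 2.63 against 57.6% ± 12.5 in fresh cold cells, and 77.0% ± 10.8 against 31.6% ± 12.8 in fresh warm cells (n = 3 each, exact permutation p = 0.1 for each, with no overlap). Barcodes with no hemoglobin UMI at all numbered 0 to 2 per cold methanol library, whereas the fresh cold libraries had 100 to 388.

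Summed over all barcodes, nuclei held a far lower share of hemoglobin UMIs than cells of the same strain and sex. In Balb/c males the 4 genes made up 0.490%, 0.341% and 0.571% of UMIs in cells and 0.0123%, 0.00647% and 0.00857% in 3×500g nuclei. Hbb-bs was 69.4-fold lower in these nuclei (log2 fold change −6.12 ± 0.29, edgeR adjusted p = 8.92e-07), while the median over all genes was 0.84. In Balb/c females 3×500g nuclei had 0.00245%, 0.00174% and 0.000499%, and Hbb-bs was 182-fold lower than in cells (−7.51 ± 0.67, adjusted p = 1.01e-05), with a median over all genes of 0.57. All 4 hemoglobin genes were lower in each comparison, against 27.6% of 14027 genes in males and 35.9% of 16754 in females. Barcodes with at least 10% hemoglobin UMIs, described below, held a mean of 76.4% of hemoglobin UMIs in male and 84.9% in female cells. Outside such barcodes the median of the named cell classes was 0.0658% of UMIs in male cells and 0.00837% in male nuclei. In females it was 0.0137% in cells and 0.000733% in 3×500g nuclei. The folds therefore do not describe the typical barcode. All 7 tubule transcripts were lower in nuclei as well, with a median log2 fold change of −2.42 in males and −4.05 in females, and their part in the result was not tested. Nuclei were counted on exons and introns and cells on exons alone, and the files of nuclei hold no mitochondrial genes, so a level as a share of UMIs does not mean the same in both.

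The thinned share of barcodes with Hbb-bs was 13.3% ± 1.59 in male cells and 1.82% ± 0.437 in male nuclei, and 5.41% ± 3.33 in female cells and 0.237% ± 0.120 in female 3×500g nuclei (n = 3 each, exact permutation p = 0.1 for each pair, with no overlap). In male cells 999 to 3028 barcodes per library had under 500 UMIs and were left out.

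The hemoglobin RNA that remained in nuclei differed between the ways of isolation. Hemoglobin UMIs in the females were 0.00724%, 0.0172% and 0.00586% of the total in 1×2000g nuclei and 0.00523%, 0.00549% and 0.00427% in sucrose nuclei, above all 3 3×500g libraries. Hbb-bs was 6.43-fold higher in 1×2000g (log2 fold change 2.69 ± 0.64, edgeR adjusted p = 0.0169) and 2.90-fold higher in sucrose nuclei (1.54 ± 0.49, adjusted p = 0.0352). In 1×2000g it was 3.27 on the log2 scale without 3×500g replicate 1 and 2.08 without 1×2000g replicate 2. In sucrose nuclei it no longer passed without 3×500g replicate 2, without any 1 sucrose library or with DESeq2 (adjusted p of 0.0723). All 4 hemoglobin genes rose in each, and with Alas2 this made 5 of 5 in 1×2000g, against 19.5% of 17449 genes higher, and 4 of 5 in sucrose nuclei, against 23.9% of 17304. Hbb-bs UMIs were found in 10.7%, 17.1% and 11.2% of 1×2000g nuclei, 8.24%, 8.33% and 7.45% of sucrose nuclei, and 1.55%, 1.70% and 0.889% of 3×500g nuclei. Tubule transcripts also differed, with 6 of 7 higher in 1×2000g nuclei (Kap by 2.53, Tmem27 by 1.62) and 3 of 7 higher and 1 lower in sucrose nuclei. Their part in the result was not tested.

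Within a library, hemoglobin UMIs fell into a few barcodes with very many and a long tail of barcodes with few. A barcode was called hemoglobin-rich here where the 4 genes made up at least 10% of its UMIs, a threshold on the measured level itself. Fresh cold C57BL/6J libraries had 11, 47 and 157 such barcodes, which held 19.2%, 60.2% and 62.9% of all hemoglobin UMIs. Warm ones had 11, 17 and 17, which held 52.7%, 56.0% and 44.8%. Balb/c male cells had 32, 32 and 66 and female cells 15, 21 and 23, holding 71.9% to 81.4% and 80.9% to 90.4%. These shares depend on the threshold. At 5% and at 20% in place of 10%, the mean share was 53.1% and 37.6% in fresh cold libraries, 54.7% and 42.1% in fresh warm ones, 88.8% and 48.5% in Balb/c male cells and 91.1% and 64.6% in female cells.

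Methanol-fixed libraries differed in this respect. Cold ones had 12, 38 and 81 rich barcodes, which held only 8.45%, 9.88% and 15.6% of hemoglobin UMIs, and warm ones had 4, 6 and 2, with 9.07%, 4.75% and 2.90%. Between 66.2% and 97.6% of barcodes in cold methanol libraries had 1% to 10% hemoglobin UMIs, whereas 1.20% to 3.66% did in fresh cold libraries. At 5% and at 20% the mean share held by rich barcodes was 17.1% and 7.70% in cold and 6.81% and 3.51% in warm methanol libraries. Cryopreserved libraries had no rich barcode, and the highest share in any of their barcodes was 1.14%. Nuclei had 0 to 3 rich barcodes per library. In 1×2000g nuclei these held 23.3%, 44.9% and 0% of hemoglobin UMIs. In female 3×500g nuclei none reached 10%, but at a threshold of 5% a single barcode held 65.5% of the hemoglobin UMIs of replicate 1 and another 57.6% of those of replicate 2.

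With rich barcodes set aside at the threshold of 10%, the only one used for the remainder, the remaining barcodes had 0.341%, 0.221% and 0.461% hemoglobin UMIs in fresh cold libraries and 0.144%, 0.0789% and 0.197% in fresh warm libraries. The difference between protocols was thus present in the barcodes outside the tail, with no overlap, although these values were not tested because the split used the same measure. In methanol libraries the remaining barcodes had 1.12%, 1.59% and 2.31% after cold and 0.680%, 0.406% and 0.725% after warm dissociation. Per barcode this was a mean of 16.1, 21.4 and 30.1 hemoglobin UMIs in cold methanol and 7.70, 4.35 and 6.59 in fresh cold libraries.

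**Figure D2:**
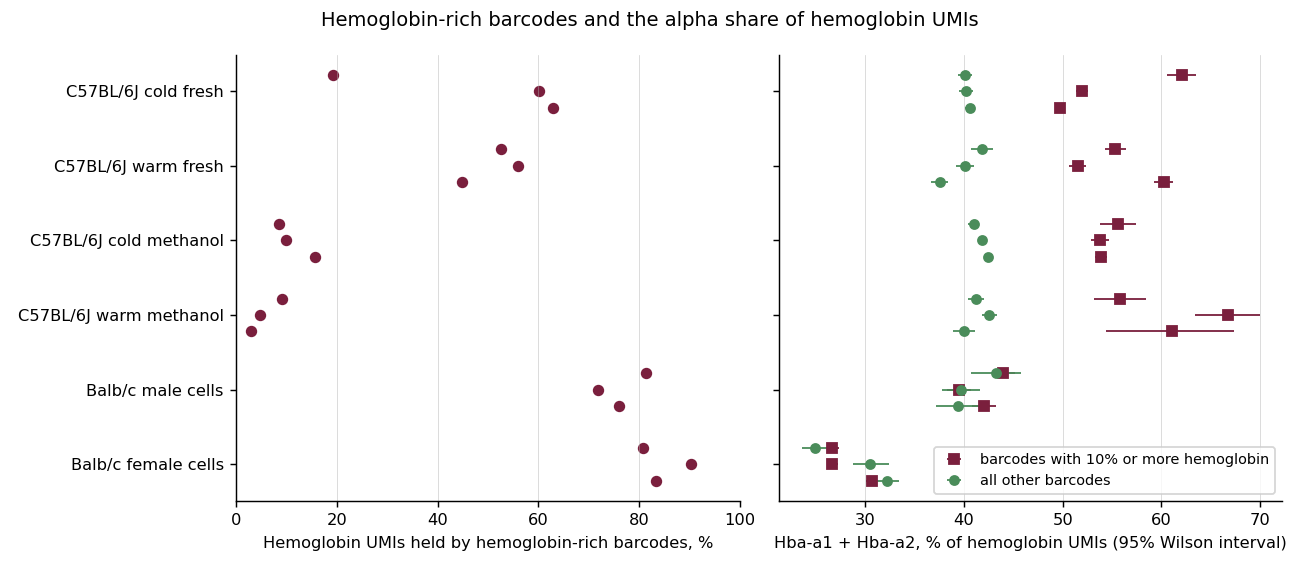
Percent of hemoglobin UMIs held by barcodes with at least 10% hemoglobin UMIs, and the percent of hemoglobin UMIs that are alpha-globin (Hba-a1 and Hba-a2) in those barcodes (squares) and in all others (circles), with 95% Wilson intervals, in 6 groups of cells with 1 row of points per library. In methanol-fixed libraries the rich barcodes hold 2.90% to 15.6%, and in Balb/c fresh cells 71.9% to 90.4%. The squares lie to the right of the circles in 12 of 12 C57BL/6J libraries.

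The rich barcodes were compared with the rest on genes that did not define them. Over the 15 libraries with at least 10 rich barcodes, Alas2 was found in a median of 27.3% of rich and 0.322% of other barcodes, with a higher CPM in the rich ones in 13 of 15. Slc25a37, the mitochondrial iron importer, was found in 8.51% and 1.71%, and Bpgm, the enzyme of 2,3-bisphosphoglycerate synthesis, in 9.09% and 5.92%. Their CPM was higher in rich barcodes in 11 and 12 of 15 libraries. Some erythroid markers were not higher in most libraries. Klf1 was in no rich barcode, and Slc4a1, which type A intercalated cells also express, was higher in 2 of 15. No cluster of barcodes met the marker rule for an erythroid name.

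Rich barcodes were not made of hemoglobin alone. The highest hemoglobin share in a barcode was 45.9% to 48.1% in fresh cold, 48.2% to 54.2% in fresh warm and 50.3% to 61.0% in Balb/c female cells, and 0 to 3 barcodes per library were over 50%. In fresh cold libraries, clustering on other genes placed 85 of 215 rich barcodes with proximal tubule-like cells, 27 with endothelial-like cells and 50 in unnamed clusters. Of all 11851 barcodes, these classes held 5547, 827 and 2052. The study kept barcodes between a lower and an upper limit on genes and removed those with an outlying ratio of UMIs to genes, so erythrocytes that express little besides globin may be missing from these files. The number of erythrocytes per suspension cannot be read from them.

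The 2 pools also differed in the make-up of their hemoglobin UMIs in C57BL/6J mice. Alpha-globin genes gave 49.7% to 66.8% of hemoglobin UMIs in rich barcodes and 37.5% to 42.6% in the others, higher in 12 of 12 fresh and methanol libraries, with 95% Wilson intervals apart in each. Intervals cover counting error of UMIs only, not the spread between the few rich barcodes. Fresh and methanol libraries of a suspension are aliquots, so the libraries are not all independent. In fresh cold replicate 1 the shares were 62.0% (60.6 to 63.5) and 40.1% (39.3 to 40.8). Balb/c cells did not show this. Males had 43.9%, 39.5% and 42.0% in rich against 43.2%, 39.7% and 39.4% in other barcodes, and females 26.6%, 26.7% and 30.6% against 24.9%, 30.5% and 32.2%.

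Outside the rich barcodes, hemoglobin was found in each named cell class of the fresh and methanol-fixed C57BL/6J cells, within a narrow range in each group. Over the 13 named classes of fresh cold cells with at least 10 barcodes in every library, the median hemoglobin share of UMIs ran from 0.280% in principal-like cells to 0.439% in monocyte and dendritic-like cells. In fresh warm cells it ran from 0.106% in distal convoluted tubule-like to 0.173% in principal-like cells over 11 classes. In cold methanol it ran from 1.28% to 2.22% over 13 classes and in warm methanol from 0.568% to 0.732% over 7. Hbb-bs UMIs were in 86.0% to 98.0% of the barcodes of each class of fresh cold cells (median library). Classes lay further apart in the Balb/c sets. Fresh female cells ran from 0.00643% in thick ascending limb-like to 0.126% in T cell-like cells, with a median class of 0.0137%, and male cells from 0.0381% in podocyte-like to 0.160% in intercalated-like cells. The 3 libraries of the T cell-like class had 0.0160%, 0.126% and 0.168%, with Hbb-bs in 11.2% to 22.8% of its barcodes, and no class of female cells had Hbb-bs in more than 26.6% (median library).

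The change with dissociation and storage was also seen class by class. Hbb-bs was lower after warm than cold dissociation in 11 of 12 classes tested, with log2 fold changes from −2.90 to 1.28 and a median of −1.77, and passed in 8 of 12, against 1.86% of all gene tests over these classes that were lower. Without cold replicate 3, 5 of 12 passed as lower and 1 as higher. In cold methanol cells it was higher in 13 of 13 classes (0.66 to 2.16, median 1.23) and passed in 8, against 9.93%. In warm methanol cells it was higher in 8 of 10 (−0.55 to 1.93, median 1.49) and passed in 5, against 4.5%. With suspension as a block, 13 of 13 and 8 of 10 passed. Without 1 library, the counts ran from 3 to 12 in cold and 3 to 7 in warm methanol cells. After cryopreservation Hbb-bs was lower and passed in 12 of 12 classes of cold cells, against 3.69%. Hbb-bs was at 0 in cold cryopreserved replicate 1, and without that library 11 of 11 classes passed (−8.29 to −6.23). In warm cells it was lower in 11 of 11 classes and passed in 10 of 11, against 3.98%. In Balb/c females no class of cryopreserved cells held an Hbb-bs UMI, which the filter can bring about in small classes, so no count of classes is given. The sums per class included rich barcodes.

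**Figure D3:**
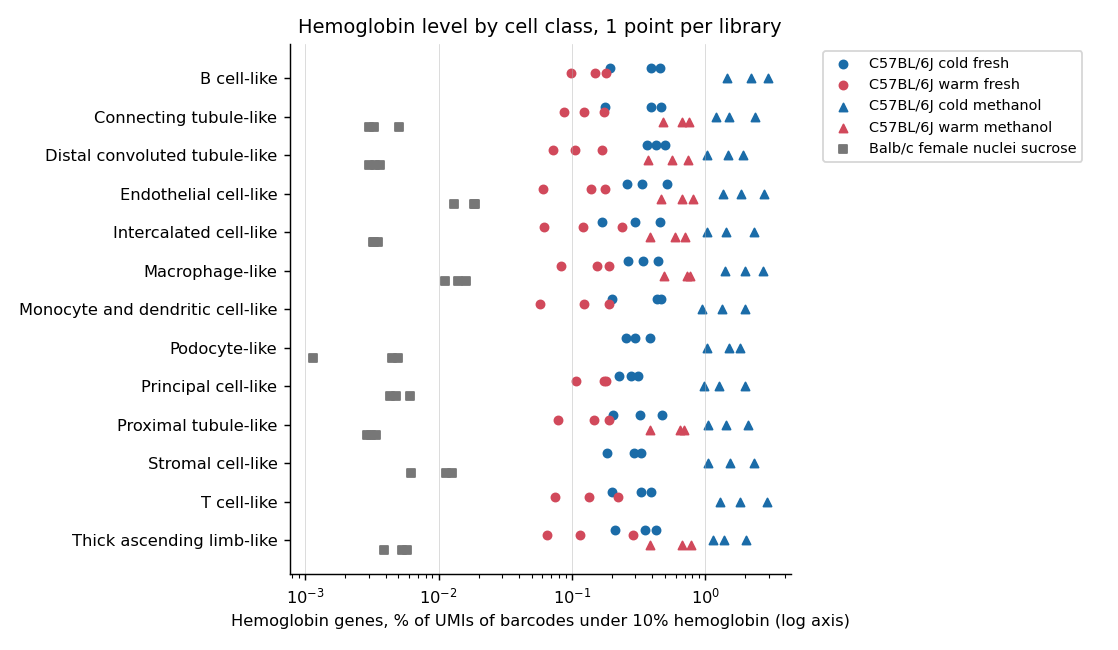
Hemoglobin UMIs as a percent of all UMIs in barcodes outside the hemoglobin-rich ones, by cell class in the fresh and methanol-fixed C57BL/6J cells and in sucrose nuclei of Balb/c females, with 1 point per library on a log axis, for classes with at least 10 barcodes in all 3 libraries of a group. Class medians run from 0.280% to 0.439% in fresh cold cells, from 1.28% to 2.22% in cold methanol cells, and from 0.00311% (proximal tubule-like) to 0.0185% (endothelial-like) in sucrose nuclei.

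Hemoglobin UMIs rose with the depth of a barcode, to a degree that depended on the preparation. In fresh C57BL/6J libraries, the deepest 25% of barcodes outside the rich ones had 4.05 to 10.1 times the median UMIs of the shallowest 25% and 4.04 to 8.53 times the hemoglobin UMIs, and their share of UMIs was lower in the deepest barcodes in each, for example 0.322% against 0.466% in cold replicate 1. In Balb/c male cells a depth ratio of 2.03 to 3.90 went with 2.91 to 6.15 times the hemoglobin UMIs, and in female cells one of 9.13 to 11.2 with 4.22 to 5.53 times. In methanol libraries a depth ratio of 5.59 to 7.20 went with 2.43 to 4.5 times the hemoglobin UMIs, so their share fell too, from 2.18% to 0.867% in cold methanol replicate 1. In female nuclei a depth ratio of 2.88 to 3.48 went with 0.578 to 0.904 times the hemoglobin UMIs in 8 of 9 libraries, so the deeper of these nuclei had fewer of them. The exception was 3×500g replicate 1, at 7.19, in which the highest barcode had 9.54% hemoglobin UMIs. In male nuclei hemoglobin UMIs rose with depth, by 1.25 to 1.48 times for a depth ratio of 2.53 to 2.89.

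Bulk RNA-seq gave the level with no droplets and no filter on barcodes. In C57BL/6J suspensions the 4 genes made up 0.274%, 0.337% and 0.380% of reads after cold and 0.251%, 0.132% and 0.235% after warm dissociation. Again the groups did not overlap, with warm replicate 2 lowest. In bulk, fewer erythrocytes and less RNA per erythrocyte cannot be told apart.

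Hbb-bs was 1.56-fold lower after warm dissociation (log2 fold change −0.65 ± 0.18, edgeR adjusted p = 0.0451) and Alas2 2.12-fold lower (−1.08 ± 0.28, adjusted p = 0.0298). Hba-a2 (−0.85 ± 0.21) and Hbb-bt (−0.91 ± 0.23) also fell, with adjusted p of 0.029 and 0.0272, whereas Hba-a1 (−0.76 ± 0.22) had an adjusted p of 0.0507. Thus 4 of 5 genes passed, against 3.26% of 14102 genes lower. None passed without cold replicate 2 or 3 or with DESeq2, and 1 passed without warm replicate 3.

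Intact kidneys were sequenced in both Balb/c sexes. The 4 genes made up 0.0105% to 0.0107% of reads in males, which had no bulk suspension, and 0.00777%, 0.00543% and 0.0206% in females. Cold suspensions of the females had 0.0453%, 0.0231% and 0.0874%, all above the intact kidneys. Alas2 was 7.95-fold higher in these suspensions (log2 fold change 2.99 ± 0.72, edgeR adjusted p = 0.0168) and Hbb-bs 4.28-fold higher (2.1 ± 0.52, adjusted p = 0.02). All 5 genes rose, against 7.91% of 16538 genes higher, but none passed without intact replicate 1 or intact replicate 2. On the log2 scale Alas2 was 4.09 without intact replicate 3 and 2.05 without suspension replicate 3, and Hbb-bs 2.79 and 1.49. Both groups were prepared with poly(A) selection.

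**Figure D4:**
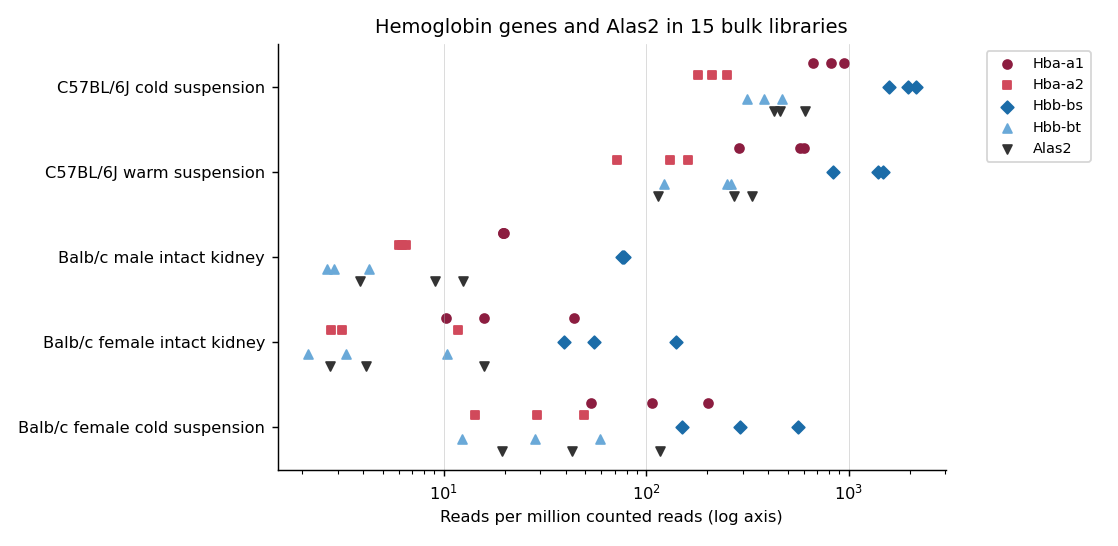
Counts of each of the 5 genes scaled to library size (CPM) in the 15 bulk libraries on a log axis, by group, with 1 point per gene and library. Hbb-bs lies at 1583 to 2137 CPM in the C57BL/6J cold suspensions and at 39.1 to 140 CPM in the intact Balb/c female kidneys.

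As CPM per kilobase of exon, Hbb-bs reached 2062, 2558 and 2782 in C57BL/6J cold bulk, Hba-a1 816, 1008 and 1164, Hbb-bt 448, 540 and 667, Hba-a2 270, 316 and 374, and Alas2 179, 190 and 253. The order was the same in all 3 libraries. Hbb-bs gave 80.7% to 86.2% of beta-globin reads per kilobase in C57BL/6J and 89.7% to 96.3% in Balb/c libraries. These ranges do not compare the strains. Read length and preparation differed, and the other beta-globin haplotype of Balb/c was counted on the reference genes. Hba-a1 gave 71.1% to 80.4% of alpha-globin reads per kilobase in bulk, but 55.0% to 60.1% of alpha-globin UMIs in the C57BL/6J fresh and methanol 10x libraries, where counting uses transcript ends. Since these ends are shared, the 2 figures need not describe the same quantity.

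Alas2 UMIs were also set against hemoglobin UMIs barcode by barcode. In fresh cold C57BL/6J cells it was found in 2.12%, 0.808% and 1.44% of barcodes, and 160 of 161 barcodes with Alas2 also had hemoglobin UMIs, as did 90.5% to 96.2% of all barcodes in these libraries. In female cells 40 of 45 did, against 9.62% to 40.9% of all barcodes. In female nuclei Alas2 was found in 2.75% to 5.94% of barcodes, of which 23 of 745 also had hemoglobin UMIs in 3×500g, 283 of 1402 in 1×2000g and 111 of 822 in sucrose nuclei. Of all barcodes, 1.56% to 2.59% in 3×500g, 15.9% to 24.7% in 1×2000g and 12.1% to 13.3% in sucrose nuclei had hemoglobin UMIs.

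Its level was higher in nuclei than in cells of Balb/c females (8.06, 10.3 and 8.23 against 2.02, 1.87 and 2.71 CPM, log2 fold change 1.01 ± 0.16, edgeR adjusted p = 0.000416), against 52.4% of genes higher and a median over all genes of 0.57. These CPM count mitochondrial genes in cells. Without them, as in the fit, the mean was 8.86 CPM in nuclei and 3.26 in cells, and the log2 fold change was 1.46 with library totals alone and 1.01 with TMM scaling. The change went the opposite way to the 4 hemoglobin genes. In Balb/c males it had a log2 fold change of 0.61 ± 0.92 with an adjusted p of 0.554, with UMIs in 1 of 3 cell libraries, 7 in all. The number of Alas2 UMIs per 1000 Hbb-bs UMIs was 1.28 to 4.60 in fresh and methanol-fixed C57BL/6J and fresh female cells, and 41.2 to 3246 in nuclei.

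Among nuclei, Alas2 was found more often in the proximal tubule-like ones than in all other named classes pooled in 12 of 12 libraries. At 500 UMIs per nucleus the shares were 1.25%, 1.28% and 1.49% against 0.222%, 0.353% and 0.217% in 1×2000g nuclei, and 0.591%, 1.00% and 0.509% against 0.0912%, 0.226% and 0.144% in 3×500g nuclei. In male nuclei they were 0.110%, 0.0706% and 0.111% against 0.0672%, 0.0414% and 0.0455%. These rest on few nuclei. Before thinning 18, 14 and 13 proximal tubule-like nuclei held Alas2, against 3, 5 and 2 of the other named classes. Taken class by class without thinning, the highest median share in male nuclei was that of the stromal-like class, 0.467%. At 500 UMIs per nucleus Hbb-bs went the other way, with a lower share in proximal tubule-like nuclei in 12 of 12 libraries. Without thinning it was higher there in male nuclei, at 4.54%, 2.64% and 3.44% against 4.10%, 2.43% and 3.17%. In female 3×500g and 1×2000g nuclei it stayed lower. Proximal tubule-like nuclei were deeper, with a median of 1066 to 1240 UMIs against 674 to 689 in males, and the part of depth was not tested. Apex2, the gene on the opposite strand over Alas2, was also found more often in proximal tubule-like nuclei, and its part in the Alas2 counts was not tested. Intron reads were counted in nuclei.

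**Figure D5:**
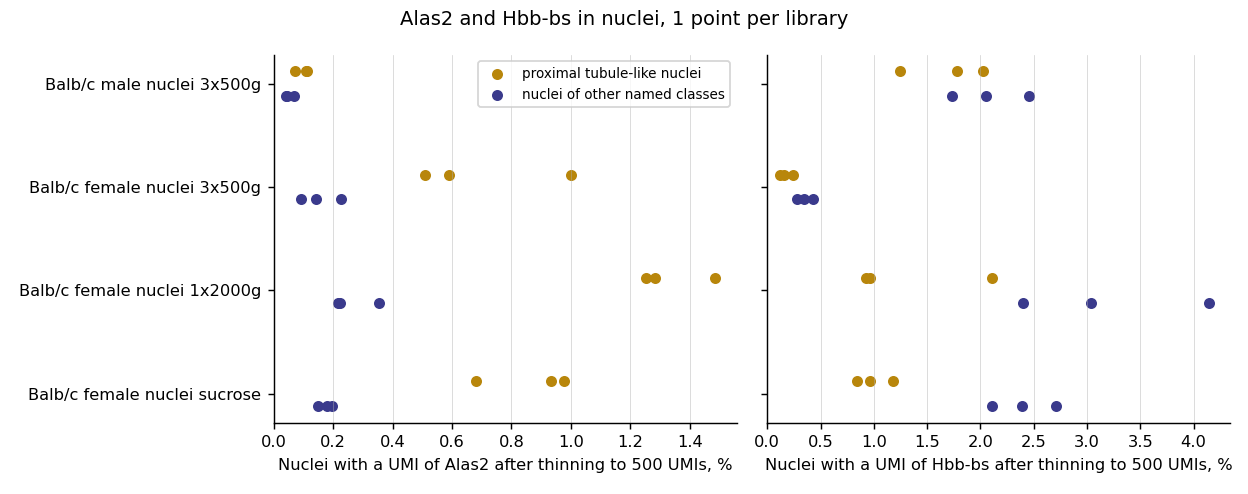
Percent of nuclei with an Alas2 UMI and with an Hbb-bs UMI after thinning each nucleus to 500 UMIs, in proximal tubule-like nuclei and in all other named classes pooled, with 1 point per library. Alas2 is higher in proximal tubule-like nuclei in 12 of 12 libraries and Hbb-bs lower in 12 of 12.

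The lists below were counted in both directions. Over all tested genes, the share higher was 7.86% after warm dissociation in fresh 10x cells and 5.42% in bulk, 22%, 25.9% and 25.1% in the cold, warm and female cryopreserved cells, and 53.6% in male nuclei against cells. The share lower was 13.6% in cold and 9.77% in warm methanol cells, 15.4% in 1×2000g and 21.4% in sucrose nuclei, and 12.1% in female bulk suspension. The shares in the opposite directions are given with the members above.

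The other genes of erythroid cells were too low for most of the 10x fits, and 6 to 12 of 21 listed markers were tested per comparison. In C57BL/6J bulk 5 of 12 were lower after warm dissociation and 1 was higher. In female bulk 2 of 10 were higher in suspension and 2 lower, among them Epb42 (−1.70). In fresh 10x cells 1 of 7 was lower after warm dissociation, which was Slc4a1. In methanol cells 2 of 6 were higher and 2 lower after cold, and none of 6 passed after warm dissociation. In cryopreserved cells 4 of 6 were lower after cold, 3 of 6 after warm dissociation and 2 of 6 in Balb/c females, with 1 higher in each. In nuclei against cells 1 of 7 was higher and 3 lower in males, and 3 of 9 higher and 3 lower in females. Of these calls 2 in cold and 2 in warm cryopreserved cells, 1 in male and 2 in female nuclei were of genes at 0 in every library of a group, which the filter can set, and are not read. Among nuclei 1 of 10 was lower in 1×2000g, and 1 was higher and 3 lower of 10 in sucrose nuclei.

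The heme synthesis list held 9 enzymes. Alas2 is the erythroid form of the first step and Alas1 the form used in other cells, and the remaining steps are shared by both. All 9 were tested in each comparison. In fresh 10x cells 3 were higher after warm dissociation (Cpox by 0.64, Uros by 0.59 and Urod by 0.39) and 1 lower, which was Alas2. In cryopreserved cells 7, 9 and 9 were lower in the cold, warm and female sets, Alas2 included, whose calls are not read for the reason given above. Methanol cells had 7 higher after cold and 2 after warm dissociation. Nuclei had 2 higher and 5 lower in males and 1 higher, which was Alas2, and 5 lower in females. In 1×2000g and in sucrose nuclei 1 was higher and 1 lower. In C57BL/6J bulk 2 were lower, Alas2 and Fech, and in female bulk 3 were higher.

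Genes that bind or break down heme and hemoglobin, such as heme oxygenase Hmox1 and haptoglobin Hp, passed in no case in fresh 10x cells, cold methanol cells or C57BL/6J bulk. In cryopreserved cells 3 of 9 were higher and 4 lower after cold, 1 higher and 5 lower of 9 after warm dissociation, and 1 higher and 5 lower of 9 in females. Hp rose by 2.81 in the cold set. In warm methanol cells 2 of 7 were higher. In nuclei 7 of 8 were lower and 1 higher than in cells in each set, and 4 of 10 were higher in 1×2000g and in sucrose nuclei. In female bulk 1 of 9 was higher and 1 lower.

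Of the other globins at most 3 could be tested in any comparison, and the embryonic chains Hbb-y and Hbb-bh1 were in no table used here. Platelet markers, which mark another blood element, had 1 to 3 genes tested per comparison. Ppbp was lower after warm dissociation in C57BL/6J bulk (−1.96), and Pf4 was higher in cold (1.59), warm (1.22) and female (0.84) cryopreserved cells. In nuclei 2 of 2 platelet markers were lower than in cells in each set, among them Pf4, which was at 0 in nuclei, and Itga2b was lower in 1×2000g nuclei (−0.42). Which cells held Pf4 was not examined, so these values do not measure platelets. Macrophage-like barcodes numbered 658 of 11851 in fresh and 569 of 3519 in cryopreserved cold cells. The numbers were 586 of 11257 and 454 of 3483 in warm cells, and 381 of 16947 and 447 of 4274 in Balb/c female cells. The part of this shift in the Pf4 result was not tested. Of the other globins, Ngb (neuroglobin) was lower in female nuclei than in cells (−3.44), and Cygb (cytoglobin) was higher in female cryopreserved cells (3.02) and lower in female bulk suspension (−2.60). Ngb was at 0 in fresh warm cells against a mean of 3.46 CPM in cold ones, a call that the filter can set and that is not read. No gene of these lists passed in methanol cells or in sucrose nuclei.

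The genes whose CPM ranked most like that of Hbb-bs over the 18 C57BL/6J 10x libraries, the 5 members left out, were Slc22a23 (Spearman rho 0.957), Myo7b (0.954) and Tmem8 (0.941). These libraries come from 3 preparations of each dissociation and include the cryopreserved ones, in which all 3 genes and Hbb-bs reached 0 CPM. Over the 15 bulk libraries they included Ccr2, a chemokine receptor of monocytes (0.961), and Lsp1, a leukocyte protein (0.957). These are descriptions over groups that differ in strain, sex and preparation, and no p is given.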

How the data were processed

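The authors deposited counts: UMIs per gene and barcode for 39 10x libraries and reads per gene for 15 bulk libraries. Per their methods and processing notes, 10x reads were processed with Cell Ranger 2.1.1 (mm10), counting exons in cells and exons with introns in nuclei, and barcodes were kept as cells by EmptyDrops and by limits on the number of genes. Genes seen in fewer than 10 cells and outliers in UMIs per gene were removed, as were mitochondrial genes in nuclei. Bulk reads were mapped with STAR 2.6.1a to GRCm38 and counted with featureCounts. Every row names a gene, and no column of another series was present.

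Counts were summed per library and tested with edgeR 4.0.16 in R 4.3.3, in 12 comparisons of 3 against 3 libraries. The settings were TMM, filterByExpr, a quasi-likelihood test over all genes and a Benjamini-Hochberg adjusted p under 0.05. Mitochondrial genes were left out where nuclei were compared. The 3 libraries of a group came from 3 mice. Apart from aliquots of a suspension, it was not known here whether groups shared mice. Shares of barcodes used barcodes thinned to 500 UMIs and exact permutation tests over libraries. Barcodes were clustered within 5 sets (2000 variable genes, 30 components, 20 neighbours, Leiden resolution 2), and clusters were named from at least 3 markers. The 5 members and mitochondrial genes were left out of the variable genes. No doublet caller was run. Barcodes were never treated as replicates. Scripts were tested on simulated counts. Alternatives were DESeq2 1.42.0, RLE factors, library totals, no filter, genes present in every library's table, a fold of at least 1 on the log2 scale, hemoglobin-rich thresholds of 5% and 20%, leaving out each library, and the suspension as a block.

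The deposited barcodes carry a suspension code that fresh and stored aliquots share. Deviations of libraries with the same code correlated at 0.255 to 0.308 (cold) and 0.101 to 0.225 (warm) between methanol and fresh libraries, and these were taken as paired. Named genes are the 5 members, up to 3 called genes per list with the largest change, and the 3 genes ranked most like Hbb-bs. Some genes that this rule names are not reported here. The members and the lists (erythroid markers, heme synthesis, other globins, heme and hemoglobin handling, platelet markers, tubule transcripts) were chosen with earlier results of these data known. Sequences are from GENCODE transcripts on GRCm38.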

Additional observations from a re-analysis of the deposited data

How the results depend on the processing

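Of 5 members, 3 to 5 were called in cryopreserved cells, nuclei and the isolation comparisons when 1 library was left out, although Hbb-bs in sucrose nuclei passed in only 2 of 6 such fits. It depended on the settings elsewhere. In fresh warm against cold cells, 4 became 2 with DESeq2 and 0 to 5 without 1 library. In cold methanol cells, 3 became 1 with DESeq2, 5 with library totals alone, 5 with the replicate block and 0 to 5 without 1 library. In warm methanol cells 4 became 1 to 4 without 1 library. In C57BL/6J bulk 4 became 1 at a log2 fold change of at least 1, 0 with DESeq2 and 0 to 5 without 1 library, and in female bulk 5 became 0 to 5. Female cryopreserved cells gave 0 among genes present in the tables of every library. Classes with Hbb-bs called went from 8 to 13 in cold methanol with the replicate block and 3 to 12 without 1 library, and in warm methanol from 5 to 8 with the block, 3 with at least 30 barcodes per class and 3 to 7 without 1 library. Alas2 in male nuclei (log2 fold change) ran from −0.17 without male cell replicate 2 to 6.65 without male cell replicate 1. Only male cell replicate 1 held Alas2, so the 6.65 was fitted against cell libraries at 0, which the filter can set, and is not read. The cause of the other changes was not tested.

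In the cryopreservation comparisons the block changed no call besides Alas2 in warm cells. Fresh warm and cold libraries share only a number (correlations of 0.188, 0.134 and −0.0302), and 5 members passed with that block. No paired analysis was possible for the Balb/c sets because their barcodes share no suspension code, nor for bulk, whose columns carry none. All 20 shares of barcodes kept their direction at other thinning depths, and the smallest p of 0.1 says nothing on stability.

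A count of 0 can cover a gene seen in up to 9 barcodes of a library, which limits every value at 0 above.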
